A study of Mus musculus with 15 samples.

Results

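The serum amyloid A genes Saa1, Saa2, Saa3 and Saa4, the orosomucoid genes Orm1, Orm2 and Orm3, the pentraxin genes Crp and Apcs, and the haptoglobin gene Hp were followed in 15 mouse livers. They were taken by name, as the amyloid, orosomucoid and pentraxin members of the acute phase together with haptoglobin, and are 10 of the 25731 genes to which deposited transcripts were assigned. All 10 passed the filter on low counts. Total RNA was sequenced from livers of C57BL/6 mice, an inbred strain, after 3 days on a ketogenic diet (5 libraries), a high-fat diet (5 libraries) or chow, the standard feed (5 libraries). A ketogenic diet supplies most energy as fat and so little carbohydrate that the liver makes ketone bodies. Mice on the ketogenic or high-fat diet were 12 weeks old. Neither how old the chow mice were nor sex, food intake, diet composition or batch is given in the sources used here. Each library was taken as 1 mouse, and libraries are named by diet and by the number in their label. Nothing in the labels says whether libraries of a diet came from separate cages or days, so p-values measure the spread between these libraries.

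The acute phase response is the programme by which the liver changes the plasma proteins it secretes after infection, injury or another inflammatory stimulus. Interleukin-6, acting through its receptor and STAT3, and interleukin-1 and tumour necrosis factor, acting through NF-kappaB and C/EBP factors, drive it in hepatocytes. Serum amyloid A proteins are small apolipoproteins carried on high-density lipoprotein, orosomucoids are heavily glycosylated carriers of small lipophilic molecules, pentraxins are ring-shaped pattern recognition proteins that engage complement, and haptoglobin captures free haemoglobin. In mice, Saa1 and Saa2 are the strongly inducible amyloid genes of the liver, and Apcs rather than Crp is the main pentraxin of the acute phase.

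Several of these genes are near-copies of a neighbour, and their sequences show which values can be told apart. In GENCODE M21 on build GRCm38, the amyloid genes lie together on chromosome 7, with Saa3 (ENSMUSG00000040026.8) at chr7:46711998-46715700 on the minus strand, Saa4 (ENSMUSG00000040017.8) at chr7:46727998-46732603 on the minus strand, Saa1 (ENSMUSG00000074115.5) at chr7:46740497-46742980 on the minus strand and Saa2 (ENSMUSG00000057465.5) at chr7:46751790-46754313 on the plus strand. The orosomucoid genes lie in a row on the plus strand of chromosome 4, with Orm1 (ENSMUSG00000039196.2) at chr4:63344560-63348163, Orm3 (ENSMUSG00000028359.4) at chr4:63356162-63359511 and Orm2 (ENSMUSG00000061540.3) at chr4:63362449-63365878. Crp (ENSMUSG00000037942.5) lies at chr1:172698055-172833031 on the plus strand, Apcs (ENSMUSG00000026542.6) at chr1:172893961-172895041 on the minus strand and Hp (ENSMUSG00000031722.10) at chr8:109575128-109579172 on the minus strand.

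The coding sequences of Saa1 and Saa2 were identical at 95.1% of aligned positions (18 mismatches in 369 bases), and those of Orm1 and Orm2 at 89.9% (63 mismatches in 624 bases). A stretch of each pair is shown because reads that fall between the capitals cannot be given to 1 copy. Capitals mark the bases that differ between the pair, at 12 positions of coding bases 70 to 189 for Saa1 and Saa2, and at 26 positions of coding bases 139 to 258 for Orm1 and Orm2, counted from 1 at the A of the start codon in the GENCODE M21 transcripts.
Saa1: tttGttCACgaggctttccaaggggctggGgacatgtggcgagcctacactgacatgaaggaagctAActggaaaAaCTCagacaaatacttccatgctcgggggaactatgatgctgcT
Saa2: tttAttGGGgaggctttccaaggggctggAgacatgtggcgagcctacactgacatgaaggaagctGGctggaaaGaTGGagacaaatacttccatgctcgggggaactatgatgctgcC
Orm1: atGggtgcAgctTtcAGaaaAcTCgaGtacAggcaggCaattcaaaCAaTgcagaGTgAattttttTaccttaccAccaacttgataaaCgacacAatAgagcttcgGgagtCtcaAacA
Orm2: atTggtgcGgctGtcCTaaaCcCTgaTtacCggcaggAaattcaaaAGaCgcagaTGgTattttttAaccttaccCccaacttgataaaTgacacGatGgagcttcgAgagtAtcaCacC

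Among all 31-base words of each gene's most abundant transcript, 30.1% in Saa1 and 22.2% in Saa2 also occurred in another gene, mostly in each other (26.8% of the Saa1 words were in Saa2). The shares were 27.5% in Orm1 and 32.2% in Orm2, but 9.4% in Orm3, 5.7% in Saa3, 3.4% in Saa4, 2.5% in Crp, 0.3% in Hp and 0.0% in Apcs. Values of Saa1 and Saa2 one by one, and of Orm1 and Orm2 one by one, are therefore uncertain, because the software assigns shared reads by estimate, and sums over the copies are given beside them. Less alike pairs were Saa1 and Saa3, identical at 76.6% of aligned coding positions, Saa1 and Saa4 at 67.0%, and Crp and Apcs at 61.2%.

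The RefSeq promoter table (build GRCm38.p6) held 8 of the 10 genes. Promoters are shown for those 4 of them that passed in a comparison (Saa1, Saa4, Orm3 and Apcs), and for Saa2 and Orm2 as the near-copies of Saa1 and Orm3. Each is the 250 bases before the RefSeq start, written 5′ to 3′ on the strand of the gene, with matches on either strand in capitals, to the C/EBP motif TTGCNNAA in all but Apcs and to the STAT motif TTCNNNGAA in Apcs. The intervals are chr7:46742981-46743230 (minus strand) for Saa1, chr7:46751583-46751832 (plus) for Saa2, chr7:46732604-46732853 (minus) for Saa4, chr4:63362199-63362448 (plus) for Orm2, chr4:63355908-63356157 (plus) for Orm3 and chr1:172895055-172895304 (minus) for Apcs.
Saa1: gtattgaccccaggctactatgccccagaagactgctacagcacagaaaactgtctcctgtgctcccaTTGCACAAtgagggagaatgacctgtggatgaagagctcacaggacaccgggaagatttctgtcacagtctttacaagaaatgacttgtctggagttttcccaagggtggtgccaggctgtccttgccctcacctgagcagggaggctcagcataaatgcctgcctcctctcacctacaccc
Saa2: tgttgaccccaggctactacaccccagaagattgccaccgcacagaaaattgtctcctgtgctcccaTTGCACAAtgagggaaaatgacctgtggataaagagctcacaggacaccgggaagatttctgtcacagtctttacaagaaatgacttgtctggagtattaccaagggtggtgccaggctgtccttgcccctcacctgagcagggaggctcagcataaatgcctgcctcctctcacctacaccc
Saa4: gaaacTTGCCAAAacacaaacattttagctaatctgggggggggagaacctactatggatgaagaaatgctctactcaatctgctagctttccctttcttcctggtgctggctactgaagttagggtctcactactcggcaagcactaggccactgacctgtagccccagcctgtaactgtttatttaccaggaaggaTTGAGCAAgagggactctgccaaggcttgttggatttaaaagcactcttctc
Orm2: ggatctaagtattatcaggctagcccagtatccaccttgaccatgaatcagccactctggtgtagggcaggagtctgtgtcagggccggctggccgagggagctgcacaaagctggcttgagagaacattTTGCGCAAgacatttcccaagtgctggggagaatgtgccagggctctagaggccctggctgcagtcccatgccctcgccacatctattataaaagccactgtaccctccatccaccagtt
Orm3: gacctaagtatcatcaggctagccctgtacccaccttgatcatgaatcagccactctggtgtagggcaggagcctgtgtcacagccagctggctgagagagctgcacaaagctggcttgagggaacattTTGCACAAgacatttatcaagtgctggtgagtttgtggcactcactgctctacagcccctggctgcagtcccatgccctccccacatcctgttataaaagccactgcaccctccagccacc
Apcs: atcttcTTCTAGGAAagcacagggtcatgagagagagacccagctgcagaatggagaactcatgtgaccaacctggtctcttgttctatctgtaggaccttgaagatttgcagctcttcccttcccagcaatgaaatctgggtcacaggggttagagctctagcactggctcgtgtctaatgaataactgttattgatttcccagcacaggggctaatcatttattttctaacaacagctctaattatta

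Both strands were searched for 4 motifs. Among 32851 RefSeq windows of the same length, TTGCNNAA was present in 9.56%, the STAT motif TTCNNNGAA in 7.02%, the NF-kappaB motif in 4.11% and the glucocorticoid receptor motif in 0.387%. The windows of Saa1, Saa2, Saa3, Orm2 and Orm3 each held 1 C/EBP match, that of Saa4 held 2, that of Apcs held 1 STAT match and that of Crp held no match to any of the 4. The match lay 182 bases before the start in Saa1 and 183 in Saa2, and 120 in Orm2 and 121 in Orm3, so that it stood at nearly the same place in each pair. The Saa1 and Saa2 windows were identical at 94.8% of aligned positions and the Orm2 and Orm3 windows at 85.9%. A match of letters is a description of the sequence and no measure of binding.

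Library totals ran from 30121672 to 50914494 estimated reads, and 13967 genes were tested. Values are normalised CPM, a gene's reads scaled to a common library size with TMM factors. Differences are log2 fold changes with standard errors from edgeR's quasi-likelihood test, with Benjamini-Hochberg adjustment over all genes tested and a threshold of 0.05. All 8 hepatocyte markers were present and summed to 85000 to 96300 CPM in ketogenic livers, 73100 to 85800 in high-fat livers and 75700 to 91600 in chow livers. Most of this sum was the albumin gene Alb, at a mean of 66990 CPM in ketogenic, 53610 in high-fat and 63990 in chow livers. The sum is therefore no measure of hepatocyte content. In each comparison with chow 1 marker was higher and 1 lower, where 30.8% (ketogenic) and 15.6% (high-fat) of all genes passed. Because these are bulk livers, fewer cells of a type and less RNA per cell cannot be told apart. Together the 10 genes took 0.407 ± 0.0604% of gene reads in ketogenic livers, 0.355 ± 0.0146% in high-fat livers and 0.272 ± 0.0119% in chow livers (SD, n = 5 each).

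Relative to chow, 3 of the 10 genes rose in ketogenic livers (Saa4, Orm3 and Hp), 1 fell (Orm1) and 6 did not pass the test. Across all genes tested, 30.8% passed in this comparison (16.2% higher and 14.6% lower). The share of members that passed is close to this background. The same 3 genes were higher in every ketogenic library than in every chow library, which 12.2% of all genes tested also were. In high-fat livers 4 rose relative to chow (Saa1, Saa4, Orm3 and Hp), 1 fell (Apcs) and 5 did not pass, against 15.6% of all genes (8.3% higher and 7.32% lower). Those 4 and Saa2 were higher in every high-fat library than in every chow library, against 5.5% of all genes. No member was lower in all libraries of the first-named diet than in all of the second, which 10.1% of all genes were for ketogenic against chow, 4.81% for high-fat against chow and 7.73% for ketogenic against high-fat. Between the ketogenic and high-fat diets only Hp passed, as higher on the ketogenic diet, against 26.1% of all genes (13.1% higher and 13% lower), and it was also the only member without overlap, against 9.3% of all genes in that direction. The members' median log2 fold change was 0.62 for ketogenic against chow, 0.46 for high-fat against chow and -0.05 for ketogenic against high-fat, beside -0.011, 0.014 and -0.016 over all genes tested. Both comparisons with chow use the same 5 chow libraries.

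**Figure D1:**
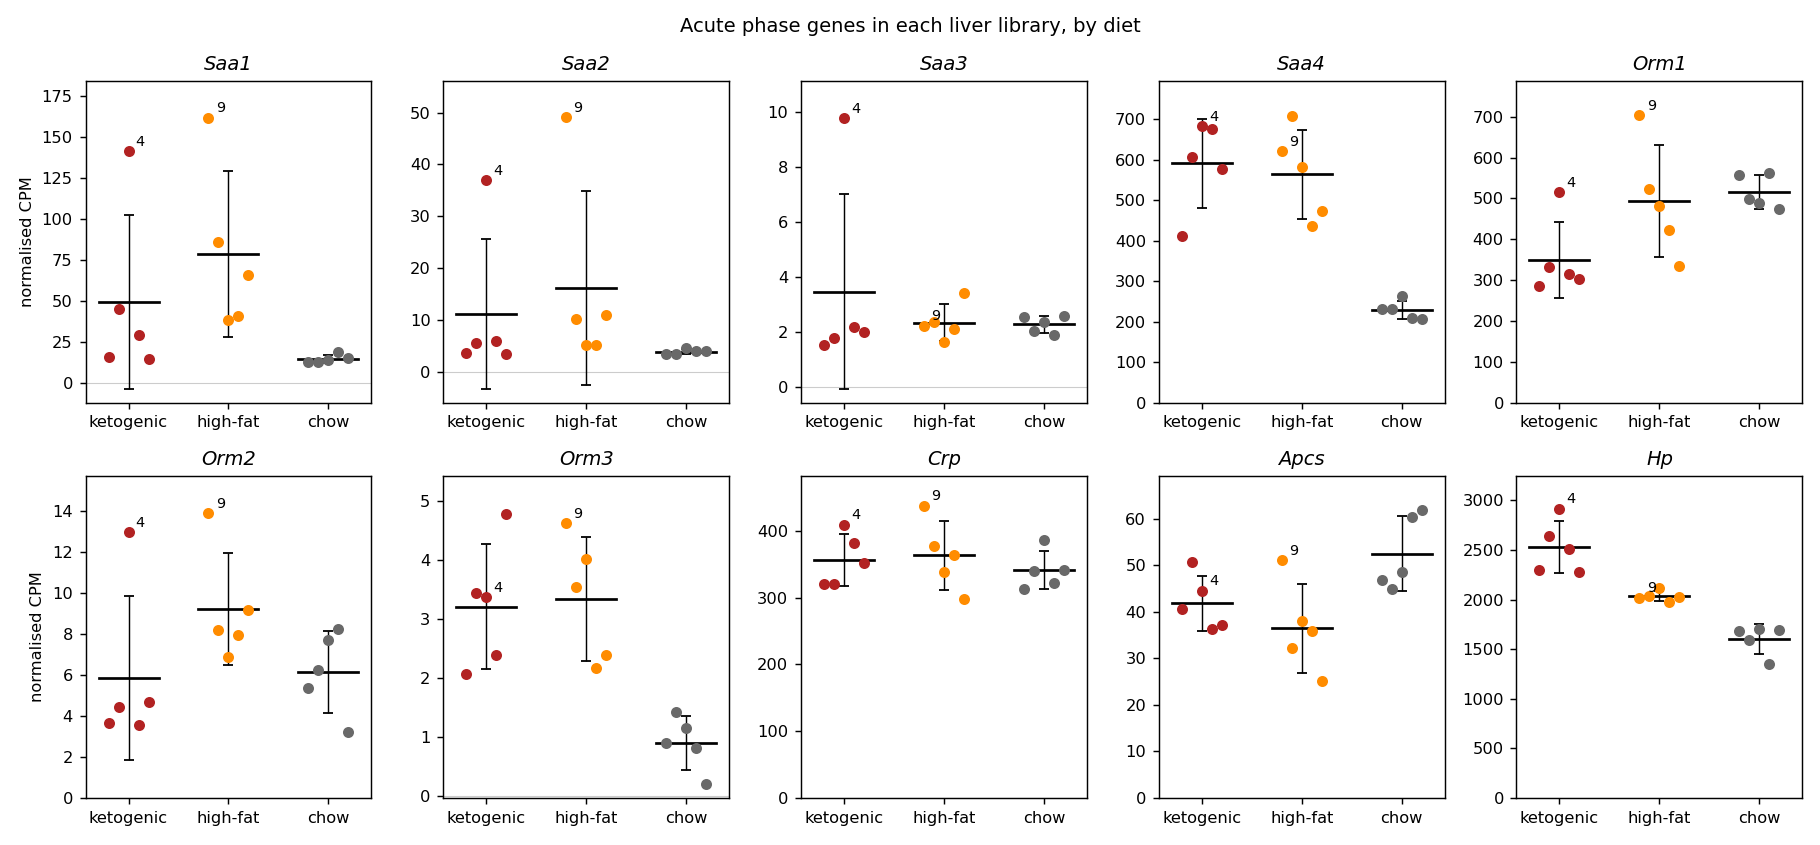
Normalised CPM (vertical axes, TMM-scaled) of each gene in each liver library, with a panel per gene and the ketogenic, high-fat and chow libraries from left to right; points are libraries, wide lines the mean and bars the SD (n = 5 each). Saa4, Orm3 and Hp stand above chow in all 5 libraries of both diets, while Saa1, Saa2 and Saa3 on the ketogenic diet are far higher in library 4 than in the other 4 libraries. Ketogenic library 4 and high-fat library 9 are numbered.

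Saa1 and Saa2, the inducible liver amyloids, were higher than chow in some fat-fed livers and at chow level in others. Saa1 had 15.86, 45.33, 141.6, 29.45 and 14.78 CPM in ketogenic libraries 2, 3, 4, 6 and 8, and 161.9, 86.25, 38.73, 40.89 and 65.82 CPM in high-fat libraries 9, 10, 11, 12 and 14. Chow libraries 15 to 19 had 12.68, 12.99, 13.97, 18.76 and 15.17 CPM. All 5 high-fat livers thus stood above all chow livers, but only 3 of 5 ketogenic livers did, and the highest ketogenic library held 9.58 times the CPM of the lowest, against 4.18 times in high-fat and 1.48 times in chow livers. On the high-fat diet Saa1 was higher than on chow by a log2 fold change of 2.42 ± 0.643 (5.35-fold, adjusted p = 0.0249). On the ketogenic diet the log2 fold change was 1.75 ± 0.633 (adjusted p = 0.0541), and the 2 diets did not differ past the threshold (-0.68 ± 0.603, adjusted p = 0.449).

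These Saa1 values depended on single livers. Without ketogenic library 4 the log2 fold change against chow was 0.84 (adjusted p = 0.21), and Saa1 was then lower on the ketogenic than on the high-fat diet (-1.58, adjusted p = 0.0329). The ketogenic comparison with chow passed without ketogenic library 2 (1.97, adjusted p = 0.0353), without ketogenic library 8 (1.98, adjusted p = 0.0325) and without high-fat library 9 (1.75, adjusted p = 0.0435). It also passed with DESeq2 (adjusted p = 0.0122), with total-count scaling (adjusted p = 0.046) and with a stricter filter on low counts (adjusted p = 0.0485). The high-fat call was lost without chow library 15 (2.37, adjusted p = 0.0596) or chow library 16 (2.38, adjusted p = 0.054), and with limma on log2(TPM + 0.5) (2.21, adjusted p = 0.0626). Without high-fat library 9 it was 1.98 (adjusted p = 0.0447).

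Saa2 had 3.8, 5.638, 36.95, 6.096 and 3.537 CPM in ketogenic libraries and 49.13, 10.3, 5.309, 5.316 and 11.07 CPM in high-fat libraries, in the same order of library numbers. In chow libraries it had 3.479, 3.46, 4.591, 4.152 and 4.09 CPM. Ketogenic library 4 and high-fat library 9 stood far above the rest, and all 5 high-fat livers were above all chow livers. The differences did not pass the test for ketogenic against chow (1.49 ± 0.826, adjusted p = 0.2), for high-fat against chow (2.04 ± 0.827, adjusted p = 0.117) or between those diets (-0.55 ± 0.764, adjusted p = 0.64). The high-fat value was 1.01 without high-fat library 9 (adjusted p = 0.347) and passed at 2.04 without ketogenic library 4 (adjusted p = 0.042), since all diets share 1 estimate of the spread, while the ketogenic value was 0.28 without ketogenic library 4 (adjusted p = 0.797). With DESeq2 the high-fat value passed (2.03, adjusted p = 0.0335). Without high-fat library 9 the difference between the fat diets turned to 0.48 (adjusted p = 0.636), and without ketogenic library 4 it was -1.76 (adjusted p = 0.0682).

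Saa1 held most reads of the pair, at 82.49 ± 3.83% in ketogenic, 85.61 ± 5.15% in high-fat and 78.67 ± 2.32% in chow livers (SD, n = 5 each). With the pair summed, which removes the division of shared reads, the log2 fold change was 1.70 ± 0.652 for ketogenic against chow (adjusted p = 0.0676) and 2.35 ± 0.663 for high-fat against chow (adjusted p = 0.0328). It was -0.65 ± 0.626 for ketogenic against high-fat (adjusted p = 0.487).

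Saa3, which in mice is made largely outside hepatocytes, in macrophages and adipocytes among others, did not pass in any comparison. It had 1.534, 1.786, 9.789, 2.164 and 2.0 CPM in ketogenic libraries, 2.216, 2.342, 1.616, 2.082 and 3.418 CPM in high-fat libraries, and 2.536, 2.03, 2.368, 1.885 and 2.556 CPM in chow libraries. Ketogenic library 4 was the high one. The other ketogenic livers lay within or below the chow range. The log2 fold change for ketogenic against chow was 0.59 ± 0.471 (adjusted p = 0.381) and turned to -0.27 without ketogenic library 4 (adjusted p = 0.305), and for high-fat against chow it was 0.03 ± 0.486 (adjusted p = 0.973). For ketogenic against high-fat it was 0.56 ± 0.47 (adjusted p = 0.421), and -0.31 without ketogenic library 4 (adjusted p = 0.255). The 9 Kupffer cell and macrophage markers summed to 129.7 to 196.9 CPM in ketogenic livers, highest in library 4, 101.8 to 174.4 CPM in high-fat livers, highest in library 14, and 131.5 to 163.5 CPM in chow livers, and none was at 0 in all libraries of a diet. Of the 12 neutrophil markers 3 passed the filter, and the list summed to 1.561 to 3.163 CPM in ketogenic livers, again highest in library 4, 1.5 to 2.131 CPM in high-fat livers and 1.799 to 2.474 CPM in chow livers, with Ngp at 0 in all ketogenic, Camp in all high-fat, and Mpo and Camp in all chow libraries. Of the 6 monocyte markers 4 passed the filter, and none was at 0 in all libraries of a diet. The list summed to 5.044 to 7.93 CPM in ketogenic livers, highest in library 2 (6.981 CPM in library 4). In high-fat livers it summed to 3.513 to 5.001 CPM and in chow livers to 4.447 to 5.766 CPM. Of the 7 adipocyte markers 3 passed the filter, and the list includes Car3, a gene that hepatocytes also express. The sum of the list was lowest in library 4 among ketogenic livers (2135 CPM, against 2987 to 5288 CPM in the others). The list summed to 2475 to 3769 CPM in high-fat and 3892 to 4960 CPM in chow livers, with Lep at 0 in all ketogenic libraries. For ketogenic against high-fat, 2 Kupffer cell and macrophage markers and 2 monocyte markers were higher, against 13.1% of all genes. For ketogenic against chow 1 monocyte marker was higher, against 16.2% of all genes. No other marker of these 4 lists passed in any comparison. The part of these cells in the Saa3 values was not tested.

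Saa4, the constitutive amyloid, whose level in plasma changes little in inflammation, rose on both diets. It had 411.2, 607.6, 682.0, 674.7 and 578.0 CPM in ketogenic libraries, 620.4, 708.0, 582.0, 435.8 and 474.4 CPM in high-fat libraries, and 232.2, 232.4, 264.1, 208.4 and 207.9 CPM in chow libraries. Every liver on either diet stood above every chow liver. The log2 fold change was 1.37 ± 0.143 for ketogenic against chow (2.58-fold, adjusted p = 2.66e-06) and 1.30 ± 0.143 for high-fat against chow (2.46-fold, adjusted p = 3.53e-05). Between the diets it was 0.07 ± 0.14 (adjusted p = 0.764). With limma on TPM, a scale on which most genes called were higher on the ketogenic diet (4953 higher and 204 lower), it was 0.38 and passed (adjusted p = 0.0192). A p above the threshold does not show that the diets act alike. Across the 25 alternative settings run for each, both calls against chow were kept, with log2 fold changes of 1.31 to 1.66 and 1.21 to 1.38. Not all settings could move these values, since summing the near-copies left Saa4 as it was (1.37, adjusted p = 2.66e-06, for ketogenic against chow).

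**Figure D2:**
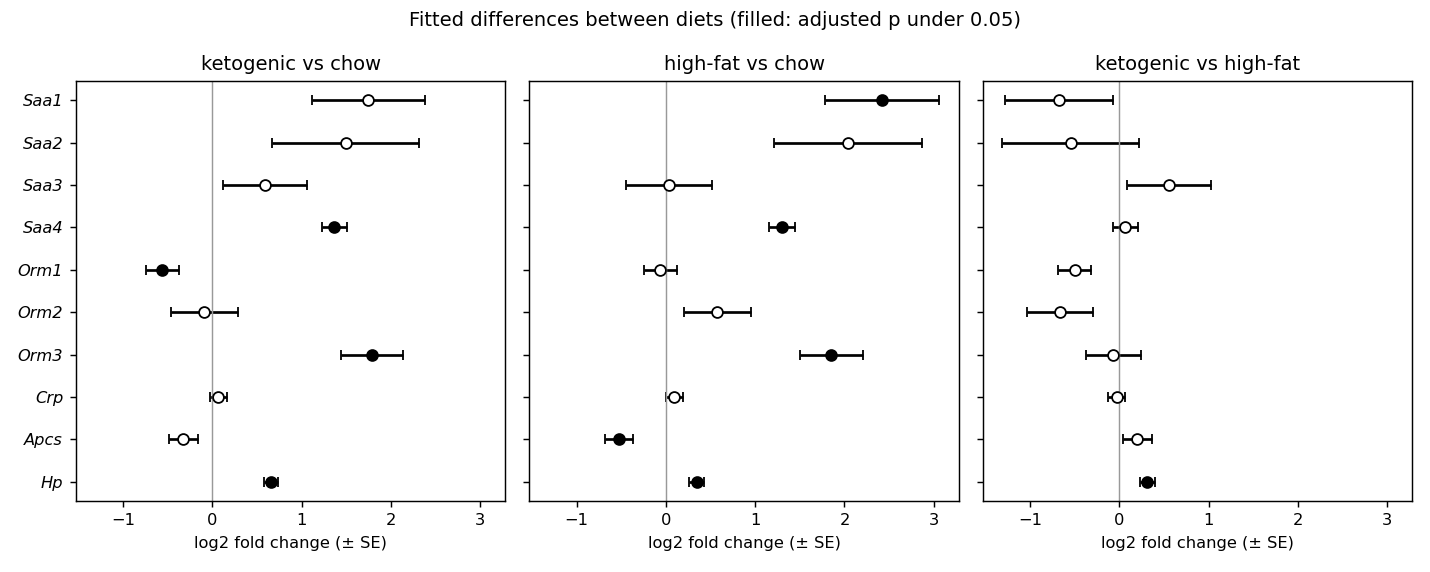
Log2 fold changes (horizontal axes) with standard errors (bars) from edgeR's quasi-likelihood test for ketogenic against chow, high-fat against chow and ketogenic against high-fat livers, with 5 libraries per diet. Filled points passed an adjusted p of 0.05; Saa4, Orm3 and Hp are filled in both comparisons with chow, and in the comparison between the fat diets Hp alone is filled, at 0.31.

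The orosomucoids did not move together: on the ketogenic diet Orm1 fell, Orm3 rose and Orm2 did not pass. Orm1, the most abundant alpha-1-acid glycoprotein gene here, had 284.9, 332.1, 514.6, 314.1 and 301.6 CPM in ketogenic libraries, 704.4, 524.0, 482.2, 423.6 and 335.5 CPM in high-fat libraries, and 558.4, 498.0, 489.0, 562.5 and 474.2 CPM in chow libraries. Ketogenic libraries 2, 3, 6 and 8 lay below every chow liver, whereas library 4 lay among them, and the high-fat livers spanned the chow range on both sides. Orm1 was lower on the ketogenic diet than on chow by a log2 fold change of -0.56 ± 0.185 (0.677-fold, adjusted p = 0.0315), and for high-fat against chow the value was -0.06 ± 0.184 (adjusted p = 0.859). The call against chow was lost in 8 of 24 alternatives: without ketogenic library 2, 3, 6 or 8 or chow library 15 or 18 the log2 fold change was -0.55 to -0.50 (adjusted p = 0.0658 to 0.0758), with no filter on low counts it was -0.55 (adjusted p = 0.0684), and with limma on TPM it was -0.25 (adjusted p = 0.222). Without ketogenic library 4 it was -0.74 (adjusted p = 0.00201). Between the ketogenic and high-fat diets the value was -0.50 ± 0.185 (adjusted p = 0.0603), which passed without ketogenic library 4 (-0.68, adjusted p = 0.00569), without high-fat library 14 (-0.61, adjusted p = 0.0201) with a stricter filter on low counts (-0.51, adjusted p = 0.0468) and with DESeq2 (adjusted p = 0.0194).

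Orm2, an orosomucoid copy that shares 27.5% of its 31-base words with Orm1, had 3.635, 4.439, 12.98, 3.574 and 4.683 CPM in ketogenic libraries, 13.9, 8.196, 6.902, 7.974 and 9.195 CPM in high-fat libraries, and 5.366, 6.25, 7.709, 8.245 and 3.238 CPM in chow libraries. All ketogenic livers but library 4 lay below all high-fat livers, and both diets overlapped chow. No comparison passed: the log2 fold change was -0.09 ± 0.378 for ketogenic against chow (adjusted p = 0.886), 0.58 ± 0.374 for high-fat against chow (adjusted p = 0.328) and -0.67 ± 0.373 for ketogenic against high-fat (adjusted p = 0.214). Without ketogenic library 4 the last was -1.18 (adjusted p = 0.00505), and the first was -0.60 (adjusted p = 0.0973).

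Orm3, the copy between them on the chromosome, was scarce and rose on both diets. It had 2.077, 3.444, 3.381, 2.403 and 4.781 CPM in ketogenic libraries, 4.632, 3.543, 4.017, 2.178 and 2.39 CPM in high-fat libraries, and 0.914, 1.43, 1.155, 0.825 and 0.205 CPM in chow libraries. Every liver on either diet stood above every chow liver, on estimated reads of 88.0 to 196.1 per ketogenic library, 68.0 to 174.1 per high-fat library and 6.0 to 61.6 per chow library. The log2 fold change was 1.78 ± 0.348 for ketogenic against chow (3.45-fold, adjusted p = 0.00119) and 1.85 ± 0.35 for high-fat against chow (3.61-fold, adjusted p = 0.00297). Both calls held in all 24 alternatives run for each (1.55 to 2.02 and 1.62 to 2.09), and between the diets the value was -0.07 ± 0.31 (adjusted p = 0.894).

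Orm1 carried 97.54 ± 0.58% of orosomucoid reads in ketogenic, 97.47 ± 0.476% in high-fat and 98.66 ± 0.426% in chow livers (SD, n = 5 each). With the 3 copies summed, the log2 fold change was -0.55 ± 0.186 for ketogenic against chow (adjusted p = 0.0371), -0.05 ± 0.185 for high-fat against chow (adjusted p = 0.901) and -0.50 ± 0.186 for ketogenic against high-fat (adjusted p = 0.0615).

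Crp, the gene of C-reactive protein, did not pass in any comparison. It had 319.7, 320.1, 408.9, 381.3 and 351.4 CPM in ketogenic libraries, 437.7, 377.7, 338.1, 364.1 and 298.4 CPM in high-fat libraries, and 313.1, 340.1, 386.8, 321.6 and 341.9 CPM in chow libraries. All 3 diets overlapped. The log2 fold change was 0.06 ± 0.0952 for ketogenic against chow (adjusted p = 0.657), 0.09 ± 0.0952 for high-fat against chow (adjusted p = 0.554) and -0.03 ± 0.0952 for ketogenic against high-fat (adjusted p = 0.858). With limma on TPM, a scale on which the median of all genes was shifted by 0.238 for ketogenic against chow, Crp passed as higher on the ketogenic diet than on chow (0.36, adjusted p = 0.0105) and than on the high-fat diet (0.27, adjusted p = 0.0435).

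Apcs, the gene of serum amyloid P component, fell on the high-fat diet. It had 40.57, 50.69, 44.58, 36.32 and 37.22 CPM in ketogenic libraries, 51.09, 32.21, 38.09, 35.87 and 25.11 CPM in high-fat libraries, and 46.82, 44.86, 48.54, 60.46 and 62.0 CPM in chow libraries. In each fat-fed diet 4 of 5 livers lay below every chow liver, and high-fat library 9 and ketogenic library 3 lay among the chow values. Apcs was lower on the high-fat diet by a log2 fold change of -0.52 ± 0.162 (0.695-fold, adjusted p = 0.0415) and was at -0.33 ± 0.161 for ketogenic against chow (adjusted p = 0.145), with 0.20 ± 0.162 between the diets (adjusted p = 0.402). With limma on TPM the value between the fat diets was 0.56 and passed (adjusted p = 0.00555). The value for ketogenic against chow passed with only those 2 diets in the fit (-0.33, adjusted p = 0.0448) and was 0.02 with limma on TPM. The high-fat call was close to the threshold and was lost in 12 of 25 alternatives, namely with no filter on low counts (adjusted p = 0.0762), with only the 2 diets in the fit (adjusted p = 0.0753) and without any 1 of ketogenic libraries 2 and 4, high-fat libraries 10, 11, 12 and 14 and chow libraries 15, 17, 18 and 19 (log2 fold changes of -0.56 to -0.42, adjusted p = 0.0518 to 0.0935).

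Hp, whose product binds free haemoglobin for uptake through CD163, rose on both diets and was the only member to pass between them in edgeR's test on all 15 libraries. Alternatives in which other members passed between the fat diets are given with those members. It had 2296, 2644, 2915, 2508 and 2279 CPM in ketogenic libraries, 2018, 2032, 2121, 1980 and 2027 CPM in high-fat libraries, and 1683, 1592, 1701, 1345 and 1694 CPM in chow libraries. The 3 diets did not overlap, with every ketogenic liver above every high-fat liver and every high-fat liver above every chow liver. The log2 fold change was 0.66 ± 0.0816 for ketogenic against chow (1.58-fold, adjusted p = 7.67e-06), 0.34 ± 0.0813 for high-fat against chow (1.27-fold, adjusted p = 0.00814) and 0.31 ± 0.0813 for ketogenic against high-fat (1.24-fold, adjusted p = 0.00863). The calls involving the ketogenic diet held in all 25 alternatives (0.60 to 1.01 against chow and 0.25 to 0.69 against high-fat), and the high-fat call was lost with limma on TPM (0.32, adjusted p = 0.165). Hp-203, annotated as a processed transcript with no coding sequence, took 18.1 ± 1.22% of Hp reads in ketogenic, 15.0 ± 2.15% in high-fat and 15.3 ± 3.28% in chow livers (SD, n = 5 each).

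Erythroid markers fell on the ketogenic diet, on which Hp was highest. The 5 markers summed to 338.0 to 554.4 CPM in ketogenic livers, 399.1 to 1166 CPM in high-fat livers and 734.8 to 1076 CPM in chow livers, with none at 0. All 5 were lower on the ketogenic diet than on chow, none passed for high-fat against chow and 1 was lower for ketogenic against high-fat. Of all genes tested, 14.6%, 7.32% and 13% were lower in these comparisons, in that order. All markers but Alas2 are globin genes (Hba-a1, Hba-a2, Hbb-bs and Hbb-bt), and reads shared between them were not measured. Hba-a1, a haemoglobin alpha chain, averaged 116.2 ± 25.07 CPM in ketogenic livers and 261.3 ± 53.87 CPM in chow livers (SD, n = 5 each), a log2 fold change of -1.17 ± 0.292 (adjusted p = 0.00847). B and plasma cell markers moved the same way. Against the same shares of all genes, 5 of 6 were lower for ketogenic against chow, 1 for high-fat against chow and 3 between the fat diets. They summed to 2.997 to 4.008 CPM in ketogenic, 4.34 to 8.439 CPM in high-fat and 5.487 to 15.34 CPM in chow livers, with none at 0 in all libraries of a diet. The part of blood content in the Hp values was not tested.

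**Figure D3:**
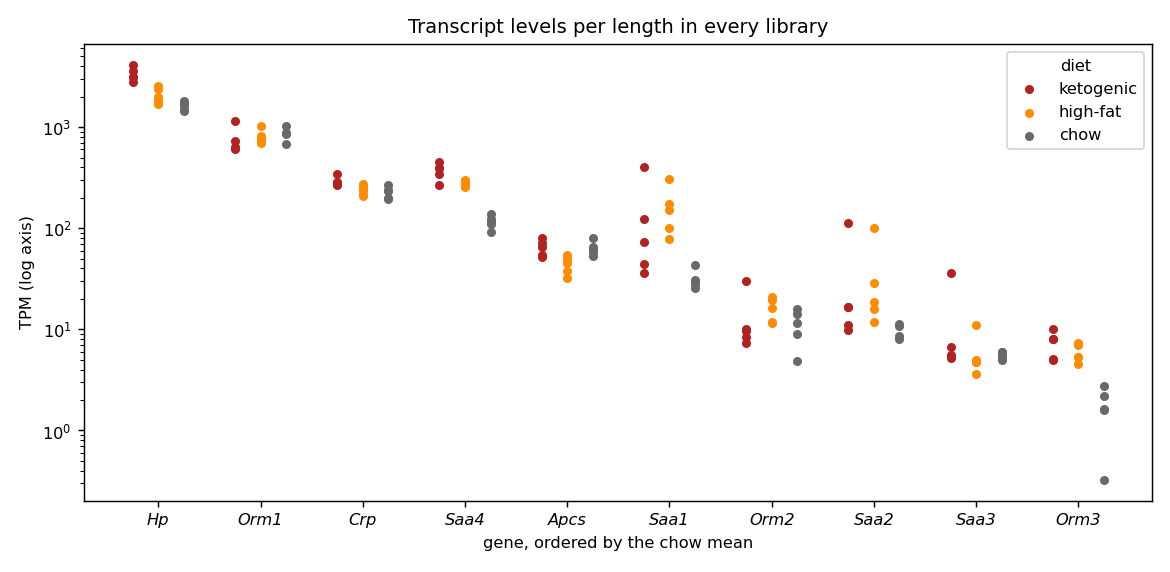
Transcript level per length (TPM, log axis) of each gene in every library, ordered by the chow mean, with ketogenic, high-fat and chow libraries from left to right within a gene. Hp and Orm1 are the highest in every diet, and Saa1 spans 35.81 to 400.4 TPM in ketogenic, 77.8 to 304.5 TPM in high-fat and 25.45 to 43.2 TPM in chow livers.

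Levels were compared between genes per transcript length, in deposited TPM summed per gene. Hp had the highest mean, at 3348 ± 528.2 TPM in ketogenic, 2077 ± 372.2 TPM in high-fat and 1647 ± 157.9 TPM in chow livers, followed in each diet by Orm1 at 745.6 ± 228.0, 802.5 ± 131.8 and 864.4 ± 124.0 TPM in that order of diets (SD, n = 5 each). Their ranges did not overlap within any diet. In chow livers Crp (196.3 to 267.3 TPM), Saa4 (91.13 to 139.4 TPM), Apcs (53.6 to 79.93 TPM) and Saa1 (25.45 to 43.2 TPM) followed with no overlap between neighbours. Below them Orm2 (4.912 to 15.73 TPM) overlapped both Saa2 (7.987 to 11.32 TPM) and Saa3 (4.947 to 5.95 TPM), and Orm3 was lowest (0.324 to 2.722 TPM). On the fat diets this order was less distinct: Saa4 reached 270.4 to 448.8 TPM in ketogenic and 255.8 to 297.0 TPM in high-fat livers and overlapped Crp in both (268.5 to 345.0 TPM in ketogenic and 208.6 to 272.3 TPM in high-fat livers), and Saa1 overlapped Saa4 and Crp in both diets. At the low end Orm3 reached 4.925 to 10.16 TPM in ketogenic and 4.527 to 7.387 TPM in high-fat livers and overlapped Saa3 in both.

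The members did not vary as 1 block from liver to liver. Ketogenic library 4 was the highest ketogenic library in 8 of the 10 genes (all but Apcs and Orm3), and high-fat library 9 the highest high-fat library in 7 (Saa1, Saa2, Orm1, Orm2, Orm3, Crp and Apcs). Relative to the mean of the other 4 ketogenic libraries, library 4 held 7.75 times the CPM of Saa2, 5.37 times that of Saa1, 5.23 times that of Saa3, 3.18 times that of Orm2 and 1.67 times that of Orm1, but 1.2 times that of Saa4 and of Hp and 1.06 times that of Orm3. High-fat library 9 held 6.14 times the CPM of Saa2, 2.8 times that of Saa1, 1.72 times that of Orm2 and 1.6 times that of Orm1 in the other 4 high-fat libraries, but 0.937 times that of Saa3 and 0.989 times that of Hp. Among other acute phase genes, ketogenic library 4 was also high in Lcn2, an iron-siderophore binding lipocalin, at 36.73 CPM, against 5.415 to 22.27 CPM in the other ketogenic livers, and in the metallothionein gene Mt2, at 22.14 CPM, against 1.227 to 11.34 CPM. Neither was high in library 4 alone, since chow livers had 0.606 to 1.237 CPM of Lcn2 and 0.144 to 0.295 CPM of Mt2. For ketogenic against chow Lcn2 rose by 4.23 ± 0.649 (adjusted p = 0.000338) and Mt2 by 5.23 ± 0.921 (adjusted p = 0.000912). For high-fat against chow neither passed (1.99 ± 0.683, adjusted p = 0.0686, and 1.84 ± 1.12, adjusted p = 0.296). High-fat library 9 had 5.683 CPM of Lcn2, against 1.537 to 4.205 CPM in the other high-fat livers, but 0.369 CPM of Mt2, against 0.39 to 1.361 CPM. Fgb, the fibrinogen beta chain, did not stand apart in ketogenic library 4 (2576 CPM, against 2233 to 3036 CPM). Nor did Serpina3n (398.2 CPM, against 283.7 to 404.7 CPM), Hamp (600.2 CPM, against 570.3 to 686.0 CPM) or Socs3 (3.327 CPM, against 2.342 to 5.361 CPM). Mt1 was high there, at 3.52 times the mean of the other 4 ketogenic libraries. Cebpd, Steap4 and Lrg1 were above all of the others by less, at 1.53, 1.28 and 1.26 times that mean.

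With the diet means removed, Pearson's r across the 15 libraries was 0.931 between Saa1 and Saa2, 0.776 between Saa1 and Orm1, 0.738 between Saa1 and Orm2, 0.681 between Orm1 and Orm2 and 0.528 between Saa1 and Saa4 (log2 CPM, a description only). Spearman's rho was lower for the same pairs, at 0.793, 0.65, 0.557, 0.557 and 0.421. Saa1 and Saa2, like Orm1 and Orm2, share reads, and all values of a library share its scaling and depth. The genes whose log2 CPM over the 15 libraries was most like that of Saa1 and Saa2 summed were Abhd10 and Pdp1 (Pearson's r = 0.832 each), Olfr1284 (0.826), Vmn1r61 (0.804) and Gtf2e1 (0.802). For Saa4 they were Omd (0.968), Sult1d1 (0.954), Enpp2 (0.951), Trp53inp2 (0.95) and Gfpt1 (0.949), and for Orm2 they were Pqlc2 (0.807), Cenpq (0.799), Ctsl (0.775), C2cd5 (0.773) and Krt7 (0.772). With the diet means removed, the values were 0.55 to 0.676 for the genes like Saa1 and Saa2, 0.507 to 0.816 for those like Saa4 and 0.654 to 0.84 for those like Orm2. Without ketogenic library 4 and high-fat library 9, r was 0.668 to 0.903, 0.947 to 0.979 and 0.665 to 0.849 in the same order. These genes were picked for their high r among the genes tested, so the values are no test of a link.

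**Figure D4:**
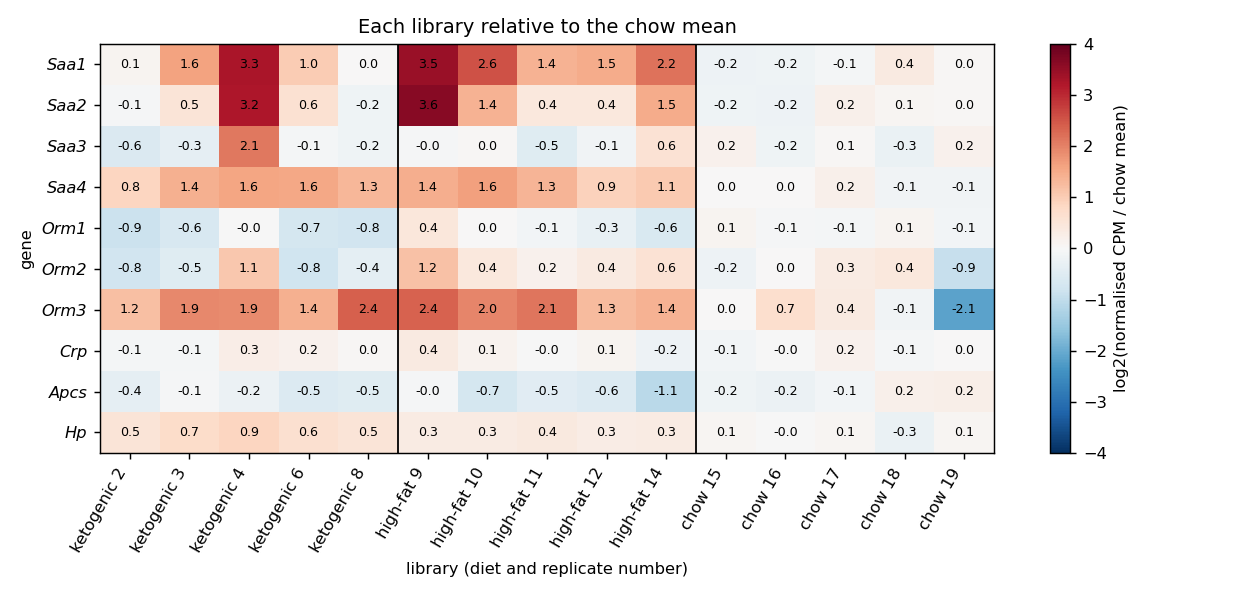
Log2 of the normalised CPM of each gene (vertical axis) in each library (horizontal axis, ketogenic, high-fat and chow from left to right), relative to the chow mean of that gene, with the value printed in each cell. Saa1 and Saa2 are highest in ketogenic library 4 and high-fat library 9. Saa1, Saa4, Orm3 and Hp are above the chow mean in all 10 fat-fed livers, Saa1 by only 0.01 in ketogenic library 8.

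The upstream signals of the response were mostly too scarce to test. Of 7 inducing cytokines, Il1a and Il1b were tested and passed in no comparison, and Il1b averaged 0.439 ± 0.211 CPM in ketogenic, 0.772 ± 0.27 CPM in high-fat and 0.793 ± 0.476 CPM in chow livers (SD, n = 5 each). For ketogenic against chow Il1b had a log2 fold change of -0.82 ± 0.374 (adjusted p = 0.108). Summed over 5 libraries, Il6 had 4 reads in ketogenic, 5 in high-fat and 7 in chow livers, Tnf had 12, 14 and 13, Osm had 1, 2 and 4 and Lif had 21, 17 and 13 in the same order, and Il22 had 0 in all. At this depth differences in these cytokines were not detectable in liver RNA.

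Among 12 cytokine receptors and adaptors, 7 rose and 2 fell for ketogenic against chow, 2 rose for high-fat against chow, and 2 fell for ketogenic against high-fat. Over all genes tested, 30.8% passed for ketogenic against chow, 15.6% for high-fat against chow and 26.1% for ketogenic against high-fat. The 2 of 12 for high-fat against chow is close to this background and the 2 of 12 between the fat diets is below it. Il6st, the signalling chain of the interleukin-6 receptor, rose on both diets (0.44 ± 0.0856, adjusted p = 0.000708, on the ketogenic diet and 0.29 ± 0.0855, adjusted p = 0.0298, on the high-fat diet). Il6ra, the chain that binds interleukin-6, averaged 109.1 ± 31.56 CPM in ketogenic and 45.18 ± 19.32 CPM in chow livers (SD, n = 5 each; 1.27 ± 0.304, adjusted p = 0.00669) and did not pass for high-fat against chow (0.74 ± 0.302, adjusted p = 0.117). Il1rap, the accessory chain of the interleukin-1 receptor, and the adaptor Myd88 also rose on the ketogenic diet, by 0.27 and 0.32, while Lifr, the leukaemia inhibitory factor receptor, was lower there than on the high-fat diet (-0.96 ± 0.226, adjusted p = 0.00739). Tyk2 was lower there as well (-0.28 ± 0.0648, adjusted p = 0.00378).

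Of 15 transcription factors and feedback genes tested, 4 rose and 1 fell for ketogenic against chow, none passed for high-fat against chow, and 4 rose and 2 fell for ketogenic against high-fat. These counts stand against 30.8%, 15.6% and 26.1% of all genes tested, and the 5 of 15 for ketogenic against chow is close to that background. Cebpd, a C/EBP factor of the acute phase, averaged 4.289 ± 1.074 CPM in ketogenic, 2.038 ± 0.878 CPM in high-fat and 1.72 ± 0.6 CPM in chow livers (SD, n = 5 each) and rose for ketogenic against chow (1.30 ± 0.283, adjusted p = 0.00237) and against high-fat (1.05 ± 0.278, adjusted p = 0.0114). Stat3, the factor activated by interleukin-6, rose for ketogenic against chow (0.44 ± 0.116, adjusted p = 0.0079), as did Il1rn, the interleukin-1 receptor antagonist (1.73 ± 0.458, adjusted p = 0.0102), and Nr3c1, the glucocorticoid receptor (0.16 ± 0.0524, adjusted p = 0.0254). Rela, an NF-kappaB subunit, was lower on the ketogenic diet than on the high-fat diet (-0.29 ± 0.0662, adjusted p = 0.00349).

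Of 24 other positive acute phase genes tested, 15 rose and 3 fell for ketogenic against chow, 8 rose and 0 fell for high-fat against chow, and 12 rose and 1 fell for ketogenic against high-fat. Over all genes tested, 16.2% rose and 14.6% fell for ketogenic against chow, and 8.3% and 7.32% for high-fat against chow. For ketogenic against high-fat the shares were 13.1% and 13%. Like the other lists, this one was chosen with earlier results of these data known, so its counts are a description and no test. The protease inhibitors Serpina3m and Serpina3n rose by 1.20 ± 0.0909 (adjusted p = 2.37e-08) and 1.10 ± 0.112 (adjusted p = 1.17e-06) on the ketogenic diet, and Lrg1, a leucine-rich glycoprotein, by 1.32 ± 0.115 (adjusted p = 2.06e-07). Serpina3n rose by 0.73 ± 0.112 on the high-fat diet (adjusted p = 0.000383) and Steap4, a metalloreductase, by 0.71 ± 0.118 (adjusted p = 0.00095). Vnn1, a pantetheinase, averaged 180.4 ± 28.2 CPM in ketogenic, 41.16 ± 11.24 CPM in high-fat and 48.05 ± 7.171 CPM in chow livers (SD, n = 5 each), a log2 fold change of 1.91 ± 0.168 for ketogenic against chow (adjusted p = 1.37e-06). Mbl2, a mannose-binding lectin, was lower on the ketogenic than on the high-fat diet (-0.55 ± 0.0907, adjusted p = 0.000264). The 3 that fell for ketogenic against chow were Mbl2 (-0.71 ± 0.0909, adjusted p = 1.12e-05) and the fibrinogen chains Fgg (-0.28 ± 0.0917, adjusted p = 0.0281) and Fgb (-0.24 ± 0.0873, adjusted p = 0.0403). The median log2 fold change over these genes was 0.50 for ketogenic against chow, 0.24 for high-fat against chow and 0.33 for ketogenic against high-fat.

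Of 10 negative acute phase genes, 1 rose and 2 fell for ketogenic against chow, 0 rose and 2 fell for high-fat against chow, and 3 rose and 1 fell for ketogenic against high-fat. Against 30.8%, 15.6% and 26.1% of all genes, the counts for both comparisons with chow are close to the background. Ttr, the thyroxine carrier transthyretin, fell on both diets (-0.45 ± 0.0818, adjusted p = 0.00036, on the ketogenic and -0.36 ± 0.0818, adjusted p = 0.00603, on the high-fat diet), while Alb fell on the high-fat diet (-0.26 ± 0.077, adjusted p = 0.0313) and Rbp4, the retinol carrier, rose on the ketogenic diet (0.31 ± 0.081, adjusted p = 0.00728). Among 18 tested partners and receptors of the members, 5 rose and 2 fell for ketogenic against chow, 2 rose for high-fat against chow, and 5 rose and 1 fell for ketogenic against high-fat. These counts are near the 30.8%, 15.6% and 26.1% of all genes that passed in the same comparisons. Scarb1, a high-density lipoprotein receptor that also binds serum amyloid A, rose on both diets (0.64 ± 0.0845, adjusted p = 1.5e-05, on the ketogenic and 0.46 ± 0.0844, adjusted p = 0.00152, on the high-fat diet). Cd163, the macrophage receptor for haptoglobin bound to haemoglobin, rose on the ketogenic diet (0.65 ± 0.133, adjusted p = 0.00123), on which Hp was highest, and was also higher there than on the high-fat diet (0.44 ± 0.132, adjusted p = 0.0204). Cd36, a fatty acid transporter that binds serum amyloid A, rose on the ketogenic diet as well (1.73 ± 0.312, adjusted p = 0.00104).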

How the data were processed

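Liver RNA of 15 mice was measured, 5 per diet, and a library was assigned to its diet by the labels. Trimmomatic 0.36, kallisto 0.44, edgeR 3.28 and build GRCm38.p6 are named, without settings, in the submitters' processing notes. The deposited tables give, per the file headers, estimated counts and TPM for 106332 transcripts. Estimated counts as deposited were summed per gene with GENCODE M21, which matched 105734 transcripts, and rounded; 598 transcripts (0.184 to 0.223% of reads) were left out. edgeR 4.0.16 (filterByExpr, minimum count 10, total 15; TMM; robust quasi-likelihood F test) fitted all 15 libraries, with Benjamini-Hochberg adjustment over 13967 genes. Adjusted p-values are from that fit unless another tool is named. The common biological coefficient of variation was 0.1306, and replicates differed by a chi-square per degree of freedom of 17.1 to 104.2. Replicates were not equally alike. Among high-fat libraries 9, 10 and 11 the value was 17.6 to 37.71 and between 12 and 14 it was 22.22. Across these sets it was 66.54 to 90.92. Chow library 19 differed from the other chow libraries by 52.32 to 104.2. What these differences did to the spread of the members was not tested. Alternatives used limma 3.58.1 and DESeq2 1.42.0 in R 4.3.3, and tables and figures were made with pandas 2.3.3 and matplotlib 3.10.9 in Python 3.11.15. The script was tested on simulated data. The members and lists were chosen with earlier results of these data known. All 10 members were named. Other genes were taken from the up to 4 per list and comparison with the smallest adjusted p, and not all of those are named. The 5 genes most like Saa1 with Saa2, Saa4 and Orm2 were named too. Il6, Tnf, Osm, Lif, Il22, Lcn2, Mt1, Mt2, Hamp, Socs3, Fgb and Fgg were named beside them after their values were seen.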

Additional observations from a re-analysis of the deposited data

Results flagged for a closer look

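In 6 of 30 groups of 5 libraries, 1 library stood apart by Dixon's test on untransformed CPM (gap over range above 0.71). Of these, 5 were ketogenic library 4, at 141.6 CPM for Saa1, 36.95 CPM for Saa2, 9.789 CPM for Saa3, 514.6 CPM for Orm1 and 12.98 CPM for Orm2. The other was high-fat library 9, at 49.13 CPM for Saa2. In the other 4 ketogenic libraries Saa1 had 14.78 to 45.33, Saa2 3.537 to 6.096, Saa3 1.534 to 2.164, Orm1 284.9 to 332.1 and Orm2 3.574 to 4.683 CPM. In the other 4 high-fat libraries Saa2 had 5.309 to 11.07 CPM. The genes share 2 libraries and, in part, reads, so these are not independent events. This cut-off flags about 5% of groups when values are normally distributed. Skewed CPM need not follow that rate, and log CPM were not examined, so the number flagged shows no excess over chance.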

How the results depend on the processing

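Of 732 values of single members under alternatives, 655 kept their direction and side of the threshold, 24 lost the call, 22 gained it and 31 changed sign. The causes were not tested. Some alternatives could change little: summing the near-copies left the reads of the other genes as they were. Leaving out a library of the diet not compared acted mainly through the shared spread. Saa4 and Orm3 against chow and Hp between ketogenic and either other diet kept their calls in every alternative run. The number of members called for high-fat against chow was 5, and 3 with limma on log2(TPM + 0.5) and 3 to 5 with each library left out (3 without chow library 15). For ketogenic against high-fat it was 1, and 2 with DESeq2, 2 with a stricter filter (1 CPM in 5 libraries and 50 reads), 4 with limma on TPM, 3 without ketogenic library 4 and high-fat library 9 together, and 1 to 4 with each library left out (4 without ketogenic library 4). Over all genes, high-fat against chow gave 2182 calls and limma on TPM 477. The calls for ketogenic against chow were 2258 higher and 2038 lower, but 2754 and 1265 with total-count scaling, and 4820 and 351 with limma on TPM. For ketogenic against high-fat they were 1826 and 1818, but 2305 and 960 with total-count scaling and 4953 and 204 with limma on TPM; for high-fat against chow they were 1159 and 1023, but 123 and 354 with limma on TPM and 453 and 1087 with TPM centred on each library's median. The median of all genes for ketogenic against chow moved to 0.238 with TPM, against -0.011. TPM divides reads by an effective transcript length, which varied by library. For Orm1 it was 626.0 to 635.4 bases in ketogenic, 643.6 to 709.1 in high-fat and 654.1 to 707.6 in chow libraries. For Saa4 the ketogenic lengths (2123.1 to 2142.4) overlapped the high-fat ones (2128.8 to 2307.8) but not the chow ones (2178.2 to 2315.4). The part of these lengths in the TPM results was not tested. Total-count scaling changed the sign of Orm3 (0.01) and Crp (0.04) for ketogenic against high-fat. Limma on TPM changed that of Orm2 (0.12) and Apcs (0.02) for ketogenic against chow, Saa3 (-0.03) for high-fat against chow, and Orm3 (0.24) and Crp (0.27) for ketogenic against high-fat; with TPM centred, Saa3 was -0.07 for high-fat against chow and Crp 0.02 for ketogenic against high-fat. Without ketogenic library 4 and high-fat library 9, a setting chosen like the centring after seeing the data, Saa3 was -0.28 against chow and -0.33 against high-fat on the ketogenic diet, Orm3 was 0.05 between the fat diets, and Saa2 (1.01) for high-fat and Orm2 (-0.60) for ketogenic against chow passed. With each library left out in turn, ranges that crossed 0 were, for ketogenic against chow, Saa3 -0.27 to 0.78 and Orm2 -0.60 to 0.05; for high-fat against chow, Saa3 -0.14 to 0.15 and Orm1 -0.23 to 0.05; and for ketogenic against high-fat, Saa2 -1.76 to 0.48, Saa3 -0.31 to 0.74, Saa4 -0.01 to 0.17, Orm3 -0.26 to 0.07 and Crp -0.09 to 0.05. No paired analysis was possible because the diets share no replicate numbers. Depth limits Orm3 in chow (6.0 reads in the lowest library) and the cytokines.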
